A study of Mus musculus with 6 samples.

Results

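Class II molecules of the major histocompatibility complex (MHC) display peptides from ingested proteins to CD4+ T cells. They are made as an alpha and a beta chain that pair in the endoplasmic reticulum around the invariant chain, which blocks the groove and escorts the pair to the endosome. There, the invariant chain is cut down, the chaperone H2-DM exchanges its last fragment for an antigen peptide, and H2-O restrains H2-DM. B cells, dendritic cells and macrophages carry most class II protein, and in the mouse lung alveolar type 2 cells carry it as well.

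To describe these genes in lungs with and without Isthmin-1 (ISM1), a secreted protein, 9 genes were taken by their symbol from the 54532 genes of the deposited read counts. They are the chain genes *H2-Aa*, *H2-Ab1* and *H2-Eb1*, the invariant chain gene *Cd74*, the master regulator *Ciita*, the H2-DM genes *H2-DMa* and *H2-DMb1*, and the H2-O genes *H2-Oa* and *H2-Ob*. All 9 were among the 18689 genes that reached 0.5 CPM (the count scaled to the library size) in at least 1 library. RNA was prepared from perfused whole lungs of 3 untreated WT C57BL/6J mice and 3 untreated mice labelled ISM1-KO, which were kept on the C57BL/6J background, all aged 2 months, and each mouse gave 1 library. WT animals came from a supplier, whereas the mutants were made by the authors, and a difference of genotype cannot be told apart from one of origin. Total counts ranged from 37606133 to 42345042 per library, and the 9 genes together took 0.193% to 0.304% of them. The libraries labelled *ISM1*-/- kept *Ism1* transcript at 87.6% of the WT mean (log2 fold change -0.19, with a standard error of 0.0709 and an adjusted p of 0.217 in edgeR's quasi-likelihood test), so the genotypes below are those of the labels. The lung marker genes *Sftpc*, *Ager*, *Scgb1a1*, *Cldn5*, *Foxj1*, *Hopx*, *Cdh5* and *Epcam* had counts in all 6 libraries. WT replicate 1 stood apart in heart muscle genes, with a summed level of 1682 CPM over 10 cardiomyocyte markers against 299 to 656 CPM in the other 5 libraries.

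*H2-Oa*, *H2-DMa*, *H2-DMb1*, *H2-Ob*, *H2-Ab1*, *H2-Aa* and *H2-Eb1* lie in this order within 223860 bases of chromosome 17 (34092340 to 34316199, GRCm38), and all of them but *H2-Aa* are on the forward strand. *Ciita* lies on chromosome 16 (10480059 to 10528418). Class II promoters are known for an upstream X box, bound by the RFX complex, followed by a Y box, bound by NF-Y, and this pair recruits the CIITA protein. RefSeq promoter sequences (GRCm38.p6, 250 bases before to 50 bases after a transcript start) were found for 6 of the 9 genes, with 2 starts for *H2-DMa*, while *H2-Ab1*, *Cd74* and *Ciita* had none in the table used. The letters GNAAC (core of the X box) and, 20 to 40 bases downstream, GATTGG (Y box, which holds the reverse complement of the CCAAT box) were searched as a pair. In the windows of these genes only the strand of the gene was searched, and over all promoters in the table used both strands were. These letters were chosen after the sequences were seen. Below, the stretch around this pair is shown 5′ to 3′ on the strand of the gene for 4 of the 5 genes that held it, with both motifs in capitals. That of *H2-DMb1* is not shown, since it lies mostly within the gene as the deposited table places it.

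*H2-Aa* (chr17:34287847-34287944, reverse strand): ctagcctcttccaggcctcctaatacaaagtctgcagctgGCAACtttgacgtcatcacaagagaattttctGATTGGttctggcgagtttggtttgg
*H2-Eb1* (chr17:34305736-34305832, forward strand): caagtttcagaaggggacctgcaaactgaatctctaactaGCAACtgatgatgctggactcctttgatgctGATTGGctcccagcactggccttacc
*H2-Oa* (chr17:34092263-34092360, forward strand): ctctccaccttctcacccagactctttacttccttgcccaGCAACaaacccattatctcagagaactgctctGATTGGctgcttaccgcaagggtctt
*H2-Ob* (chr17:34238778-34238872, forward strand): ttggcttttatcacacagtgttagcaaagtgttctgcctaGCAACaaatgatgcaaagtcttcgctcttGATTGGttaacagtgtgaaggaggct

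The first letters of the motifs were 29 to 32 bases apart in these 5 promoters, and the Y box ended 38 to 56 bases before the transcript start. Of all 32851 promoter windows in the table, 1.21% held the pair on either strand and 16.1% held GATTGG on its own. Both RefSeq starts of *H2-DMa* lie upstream of the start in the deposited table, by 12350 and 9664 bases, and neither window held the pair on the strand of the gene.

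Levels of different genes were compared per transcript length, on the FPKM values that the authors computed. *Cd74* was the most abundant member, with 991, 695 and 679 FPKM in WT and 1078, 732 and 749 FPKM in the libraries labelled *ISM1*-/-. *H2-Ab1* and *H2-Aa*, the beta and alpha chain of the H2-A molecule, followed at a mean of 479 and 467 FPKM over the 6 libraries, and *H2-Eb1* at 223 FPKM. *H2-Ab1* exceeded *H2-Aa* in 5 of the 6 libraries, so these neighbours did not separate. The H2-DM genes came next, with *H2-DMb1* at 54.5 FPKM, which is 4.09-fold below *H2-Eb1*, and *H2-DMa* at 43.0 FPKM, in this order in 6 of 6 libraries although their ranges overlapped. *H2-Ob* (18.0 FPKM) and *Ciita* (16.7 FPKM) were close, with *H2-Ob* higher in 5 of 6 libraries, and *H2-Oa* was the lowest member at 4.70 FPKM. The FPKM values rest on lengths shorter than those in the gene table for most members, for example 817 against 1874 bases for *H2-Aa*. With the lengths of the gene table, *H2-Eb1* ranked above *H2-Aa*, and the other members kept their rank.

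**Figure D1:**
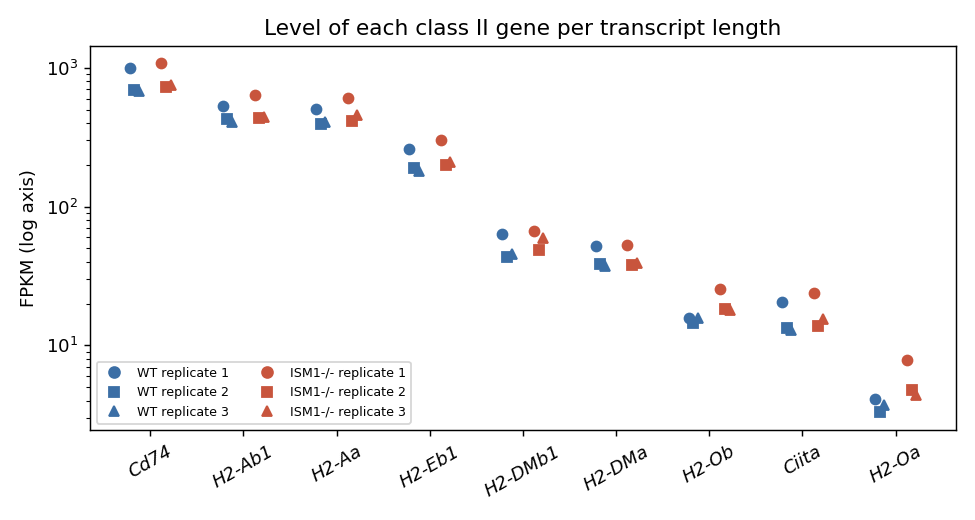
FPKM of the 9 class II genes on a log axis, ordered by their mean over the 6 libraries; each point is 1 library, blue for WT and red for those labelled *ISM1*-/-. *Cd74* lies above the H2-A chains, the H2-DM genes lie between 37.6 and 66.6 FPKM, and *H2-Oa* is lowest in every library.

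C57BL/6J mice carry no functional H2-E alpha gene. The pseudogene *H2-Ea-ps* was at 0 counts in all 6 libraries, both WT and those labelled *ISM1*-/-, while its partner chain *H2-Eb1* was transcribed. The related genes *H2-DMb2* had a mean of 15.0 FPKM in WT and 19.4 FPKM in *ISM1*-/-, and *H2-Eb2* of 1.16 and 1.77 FPKM. *H2-DMb1* and *H2-DMb2* resemble each other, as do *H2-Eb1* and *H2-Eb2*, and reads could have been split within a pair, so their single values are uncertain.

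The question of the comparison was which genes differ between WT and *ISM1*-/- lungs before any allergen is given. None of the 9 class II genes had a Benjamini-Hochberg adjusted p under 0.1 (edgeR's quasi-likelihood test), which 4.72% of all genes tested had, 1.38% being higher in *ISM1*-/- and 3.34% lower. With a change of at least 2-fold asked for as well, it was 0.567% of all genes and again none of the 9. At an unadjusted p under 0.05, 2 of the 9 were higher, *H2-Oa* and *H2-Ob*, beside 6.48% of all genes. DESeq2 on the same counts called these 2 genes higher, where it called 2.49% of all genes higher and 6.88% in either direction, and limma on log2(FPKM + 1) called none of the 9, where it called 3.66% of all genes in either direction. All 9 log2 fold changes were above 0, with a median of 0.19 (0.0043 over all genes tested, of which 51.2% were above 0). The 9 values come from the same 6 libraries and are correlated with each other, so they do not count as 9 observations. *H2-Oa* and *H2-Ob* followed the others less closely. Their Pearson's r with the mean log2 CPM of *H2-Aa*, *H2-Ab1*, *H2-Eb1* and *Cd74* was 0.81 and 0.72. That of *H2-DMb1*, *H2-DMa* and *Ciita* was 0.896, 0.956 and 0.997. In bulk RNA of this kind, more cells of a type and more RNA per cell cannot be told apart.

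**Figure D2:**
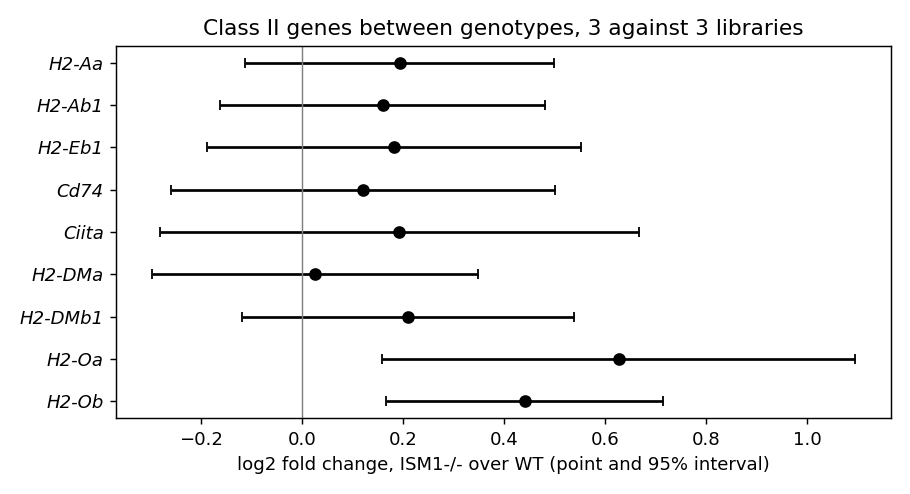
Log2 fold change of each class II gene, libraries labelled *ISM1*-/- over WT, with its 95% interval from edgeR's quasi-likelihood fit of 3 against 3 libraries. The interval includes 0 for 7 of the 9 genes; those of *H2-Oa* and *H2-Ob* lie above 0, at 0.16 to 1.09 and 0.17 to 0.71.

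In the chain genes the animals of 1 genotype spread more widely than the genotypes lay apart. *H2-Aa* was at 414, 324 and 330.4 CPM in WT and at 498, 341 and 383 CPM in the libraries labelled *ISM1*-/- (scaled by TMM, the trimmed mean of M-values). The highest values were those of *ISM1*-/- replicate 1 and WT replicate 1, and the genotypes overlapped. The WT mean of 356 ± 50.4 CPM (SD, n = 3) compared with 407 ± 81.2 CPM (SD, n = 3), a log2 fold change of 0.19 (95% interval -0.11 to 0.50, adjusted p = 0.555 in edgeR's quasi-likelihood test).

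*H2-Ab1*, its beta chain, was at 413, 333 and 318 CPM in WT and at 496, 340.1 and 353 CPM in *ISM1*-/-, again with both replicates numbered 1 on top. Its log2 fold change was 0.16 (95% interval -0.16 to 0.48, adjusted p = 0.66 in the edgeR test). *H2-Eb1*, the beta chain of H2-E, was at 305, 223 and 214 CPM in WT and at 354, 236 and 252 CPM in *ISM1*-/-, with a log2 fold change of 0.18 (95% interval -0.19 to 0.55). For *H2-Eb1*, whose interval was wider than those of *H2-Aa* and *H2-Ab1*, this covers ratios of *ISM1*-/- to WT from 0.878 to 1.47.

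*Cd74*, on chromosome 18 (60803848 to 60812646), was at 1308, 920.0 and 896 CPM in WT and at 1422, 968 and 1007 CPM in the libraries labelled *ISM1*-/-. It followed the same order of libraries as *H2-Eb1*, with the other 2 libraries of each genotype close to each other. The log2 fold change was 0.12 (95% interval -0.26 to 0.50, adjusted p = 0.803 in edgeR's quasi-likelihood test). Within *Cd74* lies *Mir5107* on the same strand, which had 12 to 32 counts per library.

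*Ciita* encodes the coactivator without which class II genes are silent in most cells. *Ciita* was at 70.8, 46.8 and 45.1 CPM in WT and at 82.9, 48.2 and 54.6 CPM in the libraries labelled *ISM1*-/-, so it varied 1.84-fold between the highest and the lowest library, more than any chain gene. The log2 fold change was 0.19 (95% interval -0.28 to 0.67, adjusted p = 0.732 in edgeR's quasi-likelihood test). *Dexi* overlaps *Ciita* over 25888 bases on the other strand with 713 to 1010 counts, against 1746 to 3525 counts of *Ciita*, and the strand setting of the counting is not given in the sources used here. *Dexi* did not share the high value of *ISM1*-/- replicate 1, where it had 869 counts against 1010 in WT replicate 2.

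**Figure D3:**
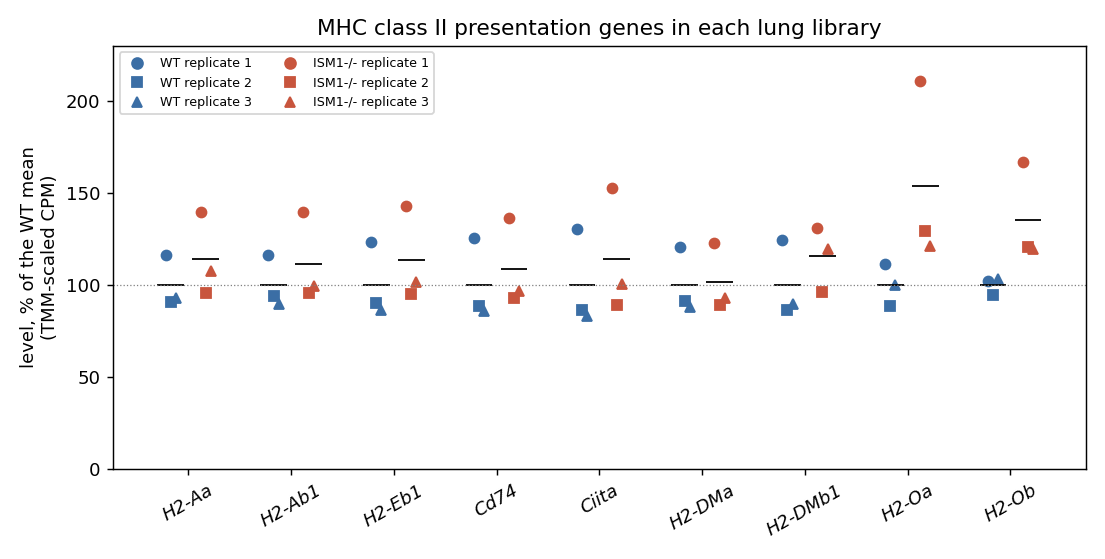
Level of each class II gene in each library, as a percentage of the WT mean of TMM-scaled CPM; points are libraries (circle, square and triangle for replicates 1, 2 and 3), bars are the mean of the 3 libraries of a genotype, blue WT and red labelled *ISM1*-/-. *ISM1*-/- replicate 1 is highest for all 9 genes and WT replicate 1 second for 7, while for *H2-Oa* and *H2-Ob* the 3 libraries labelled *ISM1*-/- lie above the 3 WT libraries.

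*ISM1*-/- replicate 1 was the highest library for all 9 members, and WT replicate 1 was second for 7 of them. Over all genes tested, 5.60% had these 2 libraries as their highest pair. WT replicate 1 lay between 102% (*H2-Ob*) and 131% (*Ciita*) of the WT mean, and *ISM1*-/- replicate 1 between 123% (*H2-DMa*) and 211% (*H2-Oa*). The other 4 libraries had a median over the 9 genes of 89.5% to 102% of the WT mean. The direction of *H2-Ab1*, *H2-Eb1*, *Cd74* and *Ciita*, but not of *H2-Aa*, turned when *ISM1*-/- replicate 1 was left out. The log2 fold change was then -0.032 for *H2-Ab1*, -0.019 for *H2-Eb1*, -0.075 for *Cd74* and -0.074 for *Ciita*. With both replicates numbered 1 left out, a choice made after the data were seen, these 4 were at 0.091, 0.16, 0.12 and 0.17, and edgeR's quasi-likelihood test again called none of the 9.

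The H2-DM genes were not called either. *H2-DMa*, the alpha subunit, was at 56.8, 42.9 and 41.3 CPM in WT and at 57.7, 41.8 and 43.8 CPM in *ISM1*-/-. Its log2 fold change of 0.025 (95% interval -0.30 to 0.35) was the smallest of the members, and it was -0.036, -0.060 and -0.13 without WT replicate 2, WT replicate 3 or *ISM1*-/- replicate 1, respectively. *H2-DMb1*, the beta subunit, was at 65.9, 45.8 and 47.5 CPM in WT and at 69.5, 51.2 and 63.4 CPM in *ISM1*-/-. Here *ISM1*-/- replicate 3 was close to the replicates numbered 1, unlike in *H2-DMa*, and the log2 fold change was 0.21 (95% interval -0.12 to 0.54, adjusted p = 0.547 in edgeR's quasi-likelihood test). With its counts added to those of *H2-DMb2*, it was 0.25 (adjusted p = 0.421 in the same test).

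The H2-O genes had the largest log2 fold changes of the 9. *H2-Oa*, the alpha subunit of the H2-DM inhibitor, was counted 180, 158 and 166 times in WT against 385, 211 and 203 times in *ISM1*-/-, which is 4.77, 3.81 and 4.29 CPM against 9.05, 5.56 and 5.20 CPM. All 3 *ISM1*-/- values lay above all 3 WT values. Means were 4.29 ± 0.484 CPM for WT and 6.61 ± 2.13 CPM for *ISM1*-/- (SD, n = 3 each), and edgeR's quasi-likelihood test gave a log2 fold change of 0.63 with a standard error of 0.21 and an adjusted p of 0.171. The antisense gene *BC051537* covers *H2-Oa* on the other strand with 8 to 22 counts per library.

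*H2-Ob*, the beta subunit, was counted 961, 976 and 996 times in WT against 1769, 1139 and 1161 times in *ISM1*-/-, or 25.5, 23.5 and 25.8 CPM against 41.6, 30.02 and 29.8 CPM. The WT libraries lay close together, at 24.9 ± 1.22 CPM (SD, n = 3), and again all below the *ISM1*-/- libraries, at 33.8 ± 6.77 CPM (SD, n = 3). The log2 fold change was 0.44 (standard error 0.123), and its adjusted p of 0.103 in edgeR's quasi-likelihood test was the lowest of the 9 members. Over all genes tested, the 3 *ISM1*-/- libraries lay above the 3 WT libraries in 9.33%.

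Both differences were smaller without *ISM1*-/- replicate 1, with log2 fold changes of 0.33 for *H2-Oa* and 0.26 for *H2-Ob* (adjusted p = 0.428 and 0.181 in edgeR's quasi-likelihood test). The DESeq2 Wald test on the 6 libraries gave adjusted p = 0.0567 for *H2-Oa* and 0.0130 for *H2-Ob*, so whether these genes pass 0.1 depends on the test.

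H2-O is known to be largely confined to B cells and some dendritic cells. Markers of B cells were also higher in the libraries labelled *ISM1*-/-. Of 10 B cell markers, all 10 had a log2 fold change above 0 (median 0.59), and 4 had an adjusted p under 0.1 in edgeR's quasi-likelihood test (7 in DESeq2), among them *Ms4a1* (0.66), *Cd79a* (0.59) and *Blk* (0.74). Of all genes tested, 51.2% were above 0, and 1.38% were called higher in edgeR and 2.49% in DESeq2. The summed level of all 10 markers was 174, 161 and 180 CPM in WT and 326, 253 and 185 CPM in *ISM1*-/-, and none of the 10 was at 0 in any library. The order of the *ISM1*-/- libraries was the same in *H2-Oa*, *H2-Ob* and the B cell sum, with replicate 1 highest. This order was also that of the sums of the T cell, dendritic cell and pan-leukocyte markers, and so is not particular to B cells. In the B cell sum all 3 *ISM1*-/- libraries lay above all 3 WT libraries, whereas in those other sums the genotypes overlapped. As single genes, 6 of 10 B cell, 0 of 8 T cell, 1 of 13 dendritic cell and 1 of 6 pan-leukocyte markers lay so. Of all genes tested, 9.33% did. In *H2-Ob*, *ISM1*-/- replicates 2 and 3 were nearly equal, at 30.02 and 29.8 CPM, whereas the B cell sum fell from 253 to 185 CPM. The part of B cells in the H2-O difference was not tested. As a ratio of FPKM sums, H2-O to B cell markers was 0.172, 0.168 and 0.165 in WT and 0.156, 0.140 and 0.189 in *ISM1*-/-. *ISM1*-/- replicates 1 and 2 lay below all WT values and replicate 3 above them (two-sided exact permutation test, p = 0.7). The SD of the ratio was 0.0039 in WT and 0.025 in *ISM1*-/- (n = 3 each). In WT replicate 1 the B cell markers had a median of 99.2% of the WT mean. They spread from *Ms4a1* (14.2 against a WT mean of 15.2 CPM) to *Pax5* (23.4 against 20.6 CPM). The chain genes *H2-Aa*, *H2-Ab1* and *H2-Eb1* together with *Cd74* had a mean of 120% of the WT mean in this library.

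**Figure D4:**
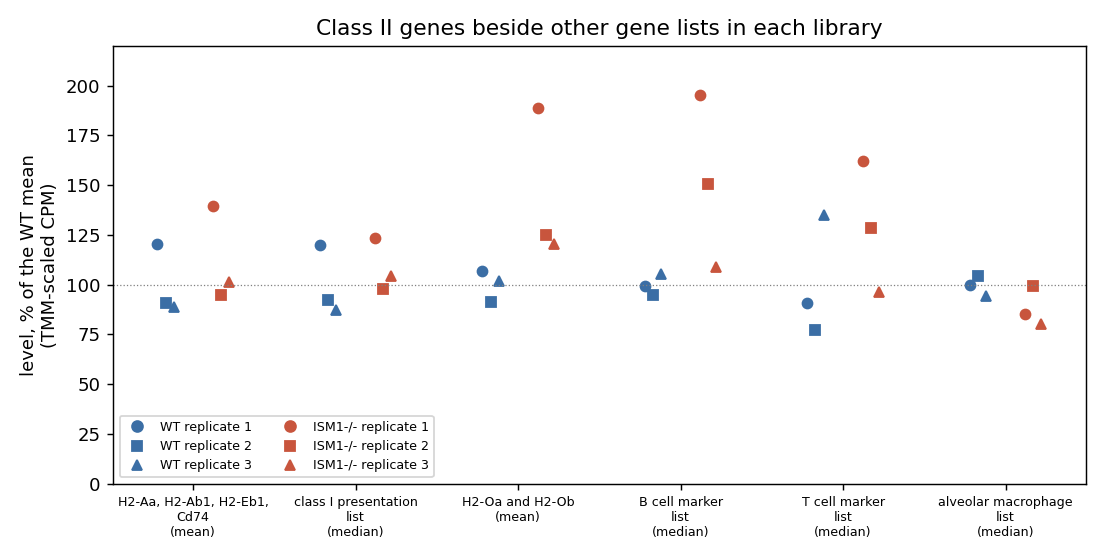
Level of class II chain genes with *Cd74*, of H2-O and of gene lists in each library, as a percentage of the WT mean of TMM-scaled CPM; each point is 1 library, given as the mean over the named genes or the median over a list, blue WT and red labelled *ISM1*-/-. The chain genes with *Cd74* and the class I list are high in both replicates numbered 1 (120% and 140%, 120% and 123%). H2-O and B cell markers are highest in *ISM1*-/- replicate 1 (189% and 195%) and next in *ISM1*-/- replicate 2 (125% and 151%).

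For the counts below, edgeR called 1.38% of all genes tested higher and 3.34% lower. DESeq2 called 2.49% higher and 6.88% in either direction. At an unadjusted p under 0.05 in edgeR, 6.48% of all genes were higher and 15.8% differed in either direction. Among other cells, the summed level of 13 dendritic cell markers was 206 to 232 CPM in WT and 226 to 257 CPM in *ISM1*-/-, and none of them was called (4 higher at an unadjusted p under 0.05 in edgeR, and 1 called by DESeq2). Of 8 T cell markers none was called in edgeR, with 3 higher at an unadjusted p under 0.05 and 2 called by DESeq2, and their sum was 43.9 to 82.8 CPM in WT and 58.0 to 95.3 CPM in *ISM1*-/-. Of 6 pan-leukocyte genes, *Ptprc* (CD45) was called higher at 139 ± 11.5 against 184 ± 22.4 CPM (SD, n = 3). At an unadjusted p under 0.05 in edgeR 3 of the 6 were higher, and DESeq2 called 2. All 6 had a log2 fold change above 0 and were highest in *ISM1*-/- replicate 1. Of 10 alveolar macrophage markers, 1 was called lower, *Cidec*, which adipocytes also express. At an unadjusted p under 0.05 in edgeR 3 of the 10 were lower, and DESeq2 called 1 lower. Their median log2 fold change was -0.16, with 2 of the 10 above 0. Their sum was 526 to 588 CPM in WT and 449 to 543 CPM in *ISM1*-/-. None of 12 interstitial macrophage and monocyte markers (0 at an unadjusted p under 0.05 in edgeR, 0 by DESeq2) and none of 10 alveolar type 2 markers (1 lower, *Sftpb*; 0 by DESeq2) was called, and the sum of the latter was 27666 to 28659 CPM in WT and 26754 to 27356 CPM in *ISM1*-/-. Of 6 plasma cell markers 5 were tested and *Jchain* was called higher. All 8 adipocyte markers were called lower (7 by DESeq2). Of 10 cardiomyocyte markers 1, *Myl7*, was called lower (0 by DESeq2). All 10 were lower at an unadjusted p under 0.05 in edgeR, and all 10 were highest in WT replicate 1. *Scgb1a1* and *Foxj1* among the 8 lung markers were called lower. The part of these cells in the class II values was not tested.

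Ratios within a library compare the members apart from the height of that library. The ratio of *H2-Aa* to *H2-Ab1* in FPKM was 0.963, 0.932 and 0.996 in WT and 0.963, 0.961 and 1.04 in the libraries labelled *ISM1*-/- (two-sided exact permutation test, p = 0.6). *Cd74* relative to both H2-A chains was 0.956, 0.845 and 0.836 in WT and 0.865, 0.859 and 0.828 in *ISM1*-/- (exact permutation p = 0.8). These ratios overlapped between genotypes, while *Cd74* itself varied 1.59-fold over the libraries.

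H2-O relative to H2-DM, inhibitor to chaperone, was 0.173, 0.214 and 0.236 in WT and 0.281, 0.268 and 0.227 in *ISM1*-/-. WT replicate 3 exceeded *ISM1*-/- replicate 3, so the genotypes overlapped, and the mean ratio was 1.25-fold higher in *ISM1*-/- (two-sided exact permutation test, p = 0.2). The ratio of *H2-DMa* to *H2-DMb1* was 0.82, 0.89 and 0.826 in WT and lower in all 3 *ISM1*-/- libraries, at 0.79, 0.777 and 0.657 (exact permutation p = 0.1, the smallest that 3 against 3 libraries allow). In all, 7 ratios were tested, 4 of them added after the data were seen, and the lowest adjusted p over them was 0.7 (exact permutation with Benjamini-Hochberg adjustment).

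**Figure D5:**
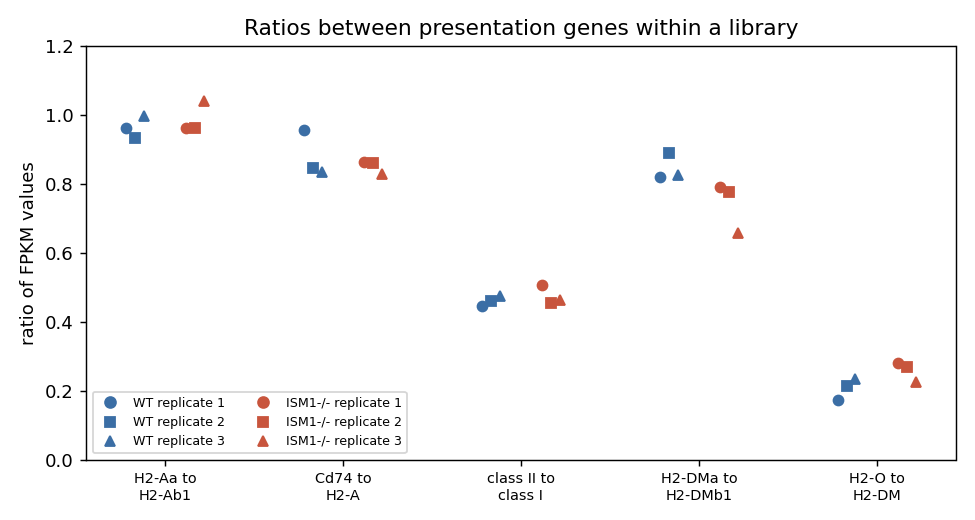
Ratios of FPKM values between presentation genes within each library, where class II is *H2-Aa* + *H2-Ab1* + *H2-Eb1*, class I is *H2-K1* + *H2-D1*, H2-A is *H2-Aa* + *H2-Ab1*, H2-O is *H2-Oa* + *H2-Ob* and H2-DM is *H2-DMa* + *H2-DMb1*; blue WT, red labelled *ISM1*-/-. Class II to class I stays between 0.445 and 0.508, and the genotypes overlap in each ratio except *H2-DMa* to *H2-DMb1*.

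Class I molecules, which display peptides from inside the cell to CD8+ T cells, showed the same high libraries. *H2-K1* was at 1321, 938 and 890.1 CPM in WT and at 1418, 1068 and 1104 CPM in the libraries labelled *ISM1*-/-. *H2-D1* was at 1554, 1231 and 1165 CPM against 1597, 1220.2 and 1316 CPM, and *B2m*, their shared light chain, at 1129, 811 and 798 CPM against 1193, 928 and 953 CPM. In each of these 3 genes both replicates numbered 1 were highest, as they were in 12 of the 13 genes of the class I list. The ratio of class II chains to *H2-K1* and *H2-D1* was 0.445, 0.459 and 0.475 in WT and 0.508, 0.456 and 0.463 in *ISM1*-/- (two-sided exact permutation test, p = 0.6). None of the 13 class I genes, which include the transporter *Tap1*, the immunoproteasome gene *Psmb9* and *Nlrc5*, the class I counterpart of *Ciita*, was called in edgeR, at an unadjusted p under 0.05 or in DESeq2.

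*Nlrc5* was at 81.6, 47.9 and 44.0 CPM in WT and at 85.2, 46.9 and 61.6 CPM in *ISM1*-/-, and *Tap1* at 125, 73.0 and 65.0 CPM against 121, 82.4 and 80.8 CPM. Both thus had the 2 high libraries of *Ciita*. Of the 15867 other genes that averaged 1 CPM or more, the 8 whose log2 CPM was most like the mean of *H2-Aa*, *H2-Ab1*, *H2-Eb1* and *Cd74* over the 6 libraries were *Slc27a6*, *Psmb9*, *Ccr2*, *Tars2*, *H2-D1*, *Inmt*, *H2-Q4* and *Gm10095*, with Pearson's r of 0.967 to 0.990 (Spearman's rho 0.829 to 1). These 8 are the extreme of 15867 correlations over 6 points, which include the 2 high libraries. Over the other 4 libraries r was 0.55 for *Inmt*, 0.78 for *Tars2* and 0.84 for *Ccr2*. It was 0.911 for *Psmb9* and *Gm10095*, 0.924 for *H2-D1*, 0.98 for *H2-Q4* and 0.997 for *Slc27a6*, each over only 4 points. *Psmb9*, *H2-D1* and *H2-Q4* belong to class I presentation. *Ccr2* is a chemokine receptor of monocytes, and it was at 43.3, 31.6 and 33.2 CPM in WT and 46.7, 33.7 and 35.6 CPM in *ISM1*-/-.

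The rest of the class II pathway was given by 6 lists of 56 genes in all, class I included, of which 54 were tested. None was called in either direction by edgeR (adjusted p under 0.1) or DESeq2, which called 4.72% and 6.88% of all genes. At an unadjusted p under 0.05 in edgeR, 2 were higher, *H2-Eb2* and *Bach2*, beside 6.48% of all genes. The median log2 fold change of the 54 genes was 0.051. *H2-Eb2* was at 3.18, 1.88 and 2.59 CPM in WT and at 4.47, 4.11 and 3.15 CPM in *ISM1*-/-, and *Bach2*, a transcriptional repressor of B cells, at a mean of 31.4 and 38.1 CPM.

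Of 7 genes for the DNA-binding partners of CIITA, 2 had both replicates numbered 1 as their highest libraries. *Rfx5*, the RFX subunit named for the X box, was at 44.5, 40.4 and 38.9 CPM in WT and at 41.4, 40.6 and 37.96 CPM in the libraries labelled *ISM1*-/-. *Nfya*, a subunit of NF-Y at the Y box, was at 73.4 ± 1.92 against 75.2 ± 4.02 CPM (SD, n = 3), *Nfyc* at 39.1 ± 1.16 against 38.9 ± 3.26 CPM, and *Creb1*, which binds next to RFX, at 92.9 ± 2.95 against 102 ± 11.1 CPM. None of the 7 genes of this list had an unadjusted p under 0.05 in edgeR. Their median log2 fold change was 0.0018.

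Among 13 genes upstream of *Ciita*, 12 were tested and 11 had a log2 fold change above 0 (51.2% of all genes had), with a median of 0.054. The most abundant were *Jak1* (279 ± 15.4 against 290.2 ± 6.52 CPM, SD, n = 3), *Ifngr1* (means of 157 against 165 CPM) and *Irf1*, an interferon-induced activator (120.0 ± 16.4 against 137 ± 9.98 CPM). *Irf1* was at 137, 119 and 104 CPM in WT and at 148, 133 and 130 CPM in *ISM1*-/-, again with both replicates numbered 1 highest. Interferon gamma itself (*Ifng*), the main inducer of *Ciita* outside of professional presenting cells, was below the filter at a mean of 0.171 and 0.272 CPM.

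Endosomal processing genes had a median log2 fold change of -0.028. *Ctss*, the protease known for the last cuts of the invariant chain, was at 151, 137 and 132 CPM in WT and at 154, 156 and 136 CPM in *ISM1*-/-. The most abundant of the 11 genes per length were *Ctsh* (243 ± 23.4 against 229.9 ± 19.1 CPM, SD, n = 3), *Ctsb* (415 ± 2.41 against 388 ± 15.1 CPM) and *Ctsd* (274 ± 4.93 against 269 ± 21.4 CPM). In *Ctsb* all 3 *ISM1*-/- libraries lay below all 3 WT libraries, as did 12.3% of all genes tested, and its adjusted p was 0.438 in edgeR's quasi-likelihood test. None of the 11 had an unadjusted p under 0.05.

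Genes of class II turnover and of costimulation were likewise not called, with 0 of 9 at an unadjusted p under 0.05 in edgeR. *March1*, the ubiquitin ligase that removes class II from the surface, was at a mean of 12.5 and 15.0 CPM, and its relative *March8* at 105 ± 4.05 against 109 ± 7.21 CPM (SD, n = 3). *Cd40* was at 18.7 ± 1.85 against 20.6 ± 0.645 CPM and *Icosl* at 31.4 ± 2.74 against 32.0 ± 4.18 CPM. The symbols of both ligases are written as dates in the deposited table, so they were found by their Ensembl identifiers.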

How the data were processed

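Perfused lungs of 3 WT and 3 *ISM1*-/- mice were measured by RNA-Seq. The authors mapped read pairs to GRCm38/mm10 with STAR and deposited raw counts per gene, which are whole numbers without normalization. The deposited FPKM values were divided by the authors by library total and gene length. The counting program, annotation release and strand setting are not given in the sources used here.

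Columns were matched to samples by the labels. The count test was that of edgeR 4.0.16 in R 4.3.3 (0.5 CPM in at least 1 library, TMM, glmQLFit, glmQLFTest, Benjamini-Hochberg over 18689 genes, called at an adjusted p under 0.1). Intervals are the log2 fold change ± the t quantile times its standard error. DESeq2 1.42.0 and limma 3.58.1 were alternatives. Ratios were compared by exact permutation over the 20 assignments of 3 against 3 libraries. Counts of each library pair differed by more than sampling noise. The test was tried on simulated data.

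The members and lists were chosen with earlier results of these data known. Named genes are the members, *Ism1*, called genes of the lists, the 3 most abundant genes of each pathway list, genes that overlap a member, and the 8 genes most like the chain genes. *Ctss*, *Nlrc5*, *Tap1*, *Rfx5*, *Ifng*, *March1*, *H2-Eb2*, *Bach2*, *Pax5* and *Sftpb* were added after their values were seen. One called marker gene is not reported here. Promoter sequences are from RefSeq.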

Additional observations from a re-analysis of the deposited data

How the results depend on the processing

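Of the 9 class II genes, edgeR's quasi-likelihood test called 0 in either direction (2 higher at an unadjusted p under 0.05). The count of higher genes was 1 with RLE size factors and with 0.5 CPM asked for in 3 libraries (*H2-Ob* in both), and 2 in DESeq2, without a filter beyond a count above 0, and with the replicate number as a block (*H2-Oa* and *H2-Ob* in all 3). Of all genes tested, 1.41% (RLE), 1.53% (3 libraries), 2.49% (DESeq2), 1.77% (no filter) and 2.13% (block) were called higher in these fits, against 1.38%. With 1 library left out the count ranged from 0 to 2, and the 2 came without *ISM1*-/- replicate 3, where 3.07% of all genes were called higher, against 0.188% to 1.31% with one of the other 5 libraries left out. It was 0 at an adjusted p under 0.05, without immunoglobulin segments, for genes averaging over 2 CPM, in both limma fits, and in the 2 alternatives added after the data were seen (paralog counts summed, both replicates numbered 1 left out). No alternative called a gene lower. Log2 fold changes below 0 were those of *H2-DMa* without WT replicate 2 (-0.036) or WT replicate 3 (-0.060), and, without *ISM1*-/- replicate 1, of *H2-Ab1* (-0.032), *H2-Eb1* (-0.019), *Cd74* (-0.075), *Ciita* (-0.074) and *H2-DMa* (-0.13). The highest values of these 5 came without WT replicate 1, at 0.28, 0.36, 0.32, 0.43 and 0.19. Leaving out 1 library, the adjusted p (edgeR) ranged from 0.080 to 0.434 for *H2-Oa* and from 0.0529 to 0.296 for *H2-Ob*, and over the other 11 alternatives, DESeq2 and limma included, from 0.0244 to 0.36 and from 0.00447 to 0.254. The cause was not tested. The 3 planned ratios moved by less than 1 SD between libraries on CPM sums. With 1 library left out, the log2 difference of H2-O to H2-DM ranged from 0.20 to 0.42. That of *Cd74* to H2-A ranged from -0.080 to 0.017 and that of class II to class I from -0.0014 to 0.077, so both changed sign. Deviations of mice with the same number correlated at -0.0275, 0.0341 and 0.0622, and those of mice with different numbers at -0.0936 to 0.085. The labels do not say whether mice of the same number were handled together, which correlations over so few mice cannot decide. With 3 mice per genotype, the intervals of the chain genes reach 1.40-fold to 1.47-fold.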
